A study of Homo sapiens with 2 samples.

Results

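The KMT2D peaks of chromosome 19 in OCI-LY7 cells are described here, split into 4 blocks that hold tandem clusters of KRAB zinc-finger genes and the remainder of the chromosome. OCI-LY7 is an established cell line from diffuse large B-cell lymphoma of the germinal centre type. Its genotype is labelled wild type (wt), and it was grown in IMDM with serum and fixed in formaldehyde. The study made 1 chromatin immunoprecipitation library with an antibody raised against the N-terminus of KMT2D and 1 input library without antibody, each from this same line. All peaks listed on chromosome 19 were taken, 1570 of 24824 in the list (6.32%), from base 246765 to base 59085167 on hg19. A peak was given to a block when its highest point lay inside the bounds set for that block: 19.8 to 24.4 Mb (block 1), 36.5 to 38.3 Mb (block 2), 44.3 to 45 Mb (block 3) and 52.4 to 58.7 Mb (block 4). The blocks held 222 peaks in 13.4 Mb and the remaining 45.4 Mb of the peak-bearing span held 1348. With 1 library there was no replicate, so no test between regions was made. The 95% intervals below cover counting error over peaks, which are not independent replicates. The number of reads behind each peak is unknown.

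KMT2D, also called MLL4, is a methyltransferase that places methyl groups on H3K4, chiefly the mono-methyl mark of enhancers, and it is a frequent target of inactivating mutations in germinal centre lymphoma. KRAB zinc-finger proteins are DNA-binding repressors. Many of them recognise transposable elements and recruit the co-repressor TRIM28, which brings the H3K9 methyltransferase SETDB1 and compacted chromatin. Their genes multiplied by tandem duplication and lie side by side in clusters, several of which are on chromosome 19 and are known to carry H3K9 methylation over the 3' parts of the genes. In the RefSeq gene table for GRCh38.p14, 250 of the 1451 protein-coding genes of chromosome 19 (17.2%) have a symbol of the form ZNF plus a number, against 1.44% elsewhere. These are 48.4% of all 517 such genes, and chromosome 7 follows with 35. It shows 17 runs of 5 or more such genes with no other protein-coding gene between them, which hold 188 genes. The longest run has 27 genes, from ZNF737 to ZNF681, the next has 24, from ZNF627 to ZNF791, and runs of 20 genes go from ZNF566 to ZNF793 and from ZNF283 to ZNF180. The table was used only for names and neighbours, because its build is not that of the peaks, and no peak was assigned to a gene. Zinc-finger genes are also known on the short arm outside the 4 blocks, among them the run from ZNF627 to ZNF791, and block 4 is known to include other families, among them the LILR and KIR receptors of leukocytes, so neither class is pure.

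KMT2D peaks were sparser in the zinc-finger blocks than in the rest of the chromosome. The blocks made up 22.8% of the span and held 14.1% of the peaks. Their density was 16.6 peaks per Mb (exact Poisson 95% interval 14.5 to 18.9), against 29.7 outside (28.1 to 31.3). The ratio was 0.558 (exact conditional interval 0.482 to 0.644), a 1.79-fold lower density. Peaks covered 0.939% of the blocks and 1.89% of the remainder, so in covered bases the ratio was 0.496.

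The 4 blocks differed from each other in density. Block 1, next to the centromere, was the emptiest, with 32 peaks in 4.6 Mb or 6.96 peaks per Mb (4.76 to 9.82), 4.26-fold below the rest of the chromosome (ratio 0.234, interval 0.160 to 0.333). Block 2 held 29 peaks in 1.8 Mb, or 16.1 per Mb (10.8 to 23.1; ratio to outside 0.543, 0.362 to 0.784). Block 3 held 8 peaks in 0.7 Mb, or 11.4 per Mb (4.93 to 22.5; ratio 0.385, 0.166 to 0.761). Block 4, the longest at 6.3 Mb, held 153 peaks, or 24.3 per Mb (20.6 to 28.5), and its ratio of 0.819 (0.688 to 0.968) was the closest to 1. Block 4 was 3.49 times as dense as block 1 (2.37 to 5.28) and 1.51 times as dense as block 2 (1.01 to 2.33). Block 2 was 2.32 times as dense as block 1 (1.35 to 3.95). The intervals of blocks 2 and 3 overlapped widely (ratio of block 3 to block 2 0.709, 0.280 to 1.59), and with 8 peaks the density of block 3 is known only roughly.

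**Figure D1:**
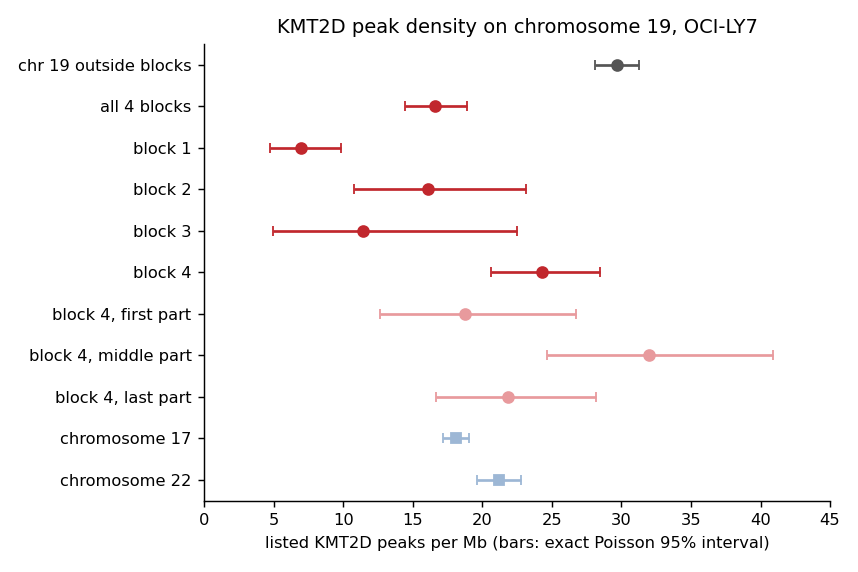
Listed KMT2D peaks per Mb (horizontal axis) with exact Poisson 95% intervals for chromosome 19 outside the blocks (grey circle), all 4 blocks together and each block (dark red), the first, middle and last parts of block 4 (light red), and chromosomes 17 and 22 (blue squares). Block 1 lies lowest at 6.96 and the middle part of block 4 highest at 32, above the 29.7 outside the blocks.

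Within block 4 the peaks were uneven. The middle part, from 54 to 56 Mb, held 64 peaks, or 32 per Mb (24.6 to 40.9). The part before it held 30 peaks in 1.6 Mb, or 18.8 per Mb (12.7 to 26.8), and the part after it held 59 in 2.7 Mb, or 21.9 per Mb (16.6 to 28.2). The middle part was 1.55 times as dense as both others together (1.10 to 2.16), and its ratio to chromosome 19 outside the blocks was 1.08 (0.826 to 1.39). Its bounds are not among those that define the blocks, and earlier results of these data were known. The intervals do not cover that choice, and a cluster of 10 peaks lies just beyond the 56 Mb bound. The LILR and KIR genes are known to lie in this middle part, but no peak was assigned to a gene. Whether the density of the middle part goes with them was not tested. Its peaks were uneven, in stretches picked after their values were seen. No peak was listed between 55196215 and 55470252, and 12 lay in a cluster at chr19:55624216-55692011. Without the middle part, the density of all blocks relative to the rest was 0.467 (0.394 to 0.551).

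Compared with other chromosomes over their whole spans, block 1 had an ordinary density of peaks and the other blocks a high one. The lowest listed height was 26 on chromosome 19 and less on each other chromosome, so the others were counted at heights of 26 or more. Their densities then ran from 2.07 to 20.97 peaks per Mb, with a median of 5.94 over chromosomes 1 to 18, 20 to 22 and X. Each was taken from first to last peak, long stretches without a peak included. The longest such stretch was 0.842 Mb on chromosome 22 and 22.5 Mb on chromosome 1. Short blocks and whole chromosomes are thus unlike, and the comparison is rough. Block 1 exceeded 13 of these 22 chromosomes. Block 3 exceeded 19, block 2 exceeded 20 and block 4 exceeded all 22. Counting all listed peaks, chromosome 19 outside the blocks was 1.64 times as dense as chromosome 17 (1.52 to 1.77) and 1.401 times as dense as chromosome 22 (1.28 to 1.54), the nearest chromosomes in density. At heights of 26 or more the ratios were 1.67 (1.55 to 1.8) and 1.41 (1.29 to 1.55). All these ratios leave out the sparser blocks of chromosome 19 but keep every part of the other chromosomes, which raises them. The whole of chromosome 19 had 26.7 listed peaks per Mb, against 18.1 on chromosome 17 and 21.2 on chromosome 22. It was thus also denser than both, but by a smaller margin.

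The drop in peak number was seen at most block edges. Within 350 kb of the 8 edges, 85 peaks lay outside the blocks and 41 inside. At the lower edge of block 1 the counts were 14 outside and 7 inside. At the lower and upper edges of block 2 they were 16 against 7 and 11 against 6. At those of block 3 they were 11 against 4 and 9 against 4. The distance of 350 kb was set by block 3, the shortest, whose inside windows together fill its 0.7 Mb. Its inside counts thus hold all 8 of its peaks and repeat its density. At the upper edge of block 4, 18 peaks lay outside and 6 inside. The remaining pair of edges did not show this: the lower edge of block 4 had 6 outside and 7 inside, and no peak was listed on either side of the upper edge of block 1, which faces the centromere. The last listed peak of block 1 lay 393 kb inside that edge, and the next peak on the long arm lay 3885 kb beyond it. At the other 7 edges, the nearest peak inside was 5.27 to 191 kb away. Heights of the peaks nearest to the 8 edges were 39 to 96 inside and 31 to 91 outside.

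**Figure D2:**
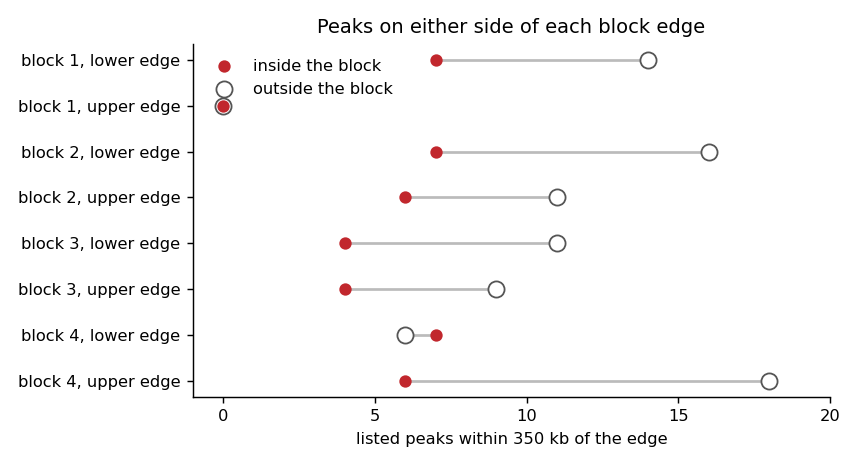
Number of listed peaks within 350 kb of each block edge (horizontal axis), outside the block (open circles) and inside it (red). Lower and upper edges are those with the lower and higher coordinate. Outside counts are higher at 6 of 8 edges, equal at 0 at the upper edge of block 1, and lower at the lower edge of block 4.

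Peak-free stretches took up much of block 1. The longest stretch without a peak on the chromosome ran from 24007245, in block 1, to 28284181 across the centromere (4277 kb). The second, from 30433644 to 32836317 (2403 kb), lay outside the blocks. The third, from 22034991 to 23257868 (1223 kb), lay wholly inside block 1 and made up 26.6% of it. Next came stretches from 43106496 to 44008058 (902 kb) and from 29081413 to 29704048 (623 kb), which lay outside the blocks. Of the 31 gaps between neighbouring peaks of block 1, 13 (41.9%) were over 100 kb, and together they spanned 3.52 Mb of its 4.6 Mb. Gaps of this length were 4 of 28 in block 2, 0 of 7 in block 3, 17 of 152 in block 4 (11.2%) and 78 of 1343 outside (5.81%). The longest gap was 305 kb in block 2, 92.0 kb in block 3 and 601 kb in block 4 (57150970 to 57751675). Since the depth is unknown, no such stretch can be taken as free of KMT2D.

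In windows of 1 Mb the contrast was one of degree. The 10 windows wholly inside a block held 3 to 40 peaks (median 13.5), and the 43 wholly outside held 0 to 83 (median 31). More than 30 peaks were found in 1 of the 10 inside and in 23 of the 43 outside. The fullest window inside a block was 55 to 56 Mb, with 40 peaks, and the emptiest was 22 to 23 Mb, with 3. Outside, the windows 25 to 26, 26 to 27, 27 to 28 and 31 to 32 Mb held 0 peaks, and the fullest, 1 to 2 Mb, held 83. The emptiest windows of the chromosome were thus outside the blocks, around and beyond the centromere. Those from 25 to 28 Mb lie within the stretch without a peak across the centromere. The list does not show whether reads could be placed there, so their 0 counts say little about KMT2D. With the part of that stretch outside block 1 left out of the length, the density ratio of blocks to remainder was 0.511 (0.441 to 0.589).

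Although sparser, the peaks of the blocks were about as tall as those outside. Height is the authors' whole-number value per peak, in units that are not stated. The median was 50 in the blocks (95% interval of the median 45 to 54; quartiles 38 and 68.8) and 51 outside (49 to 54; quartiles 37 and 73). The Hodges-Lehmann shift, which is the median of all differences between a peak in the blocks and a peak outside, was -1 (rank-based interval -4 to 2). The lowest listed height was 28 in the blocks and 26 outside. Peaks of height 94 or more, the tallest 10% of the chromosome, were 17 of 222 in the blocks (7.66%, exact interval 4.52 to 11.98%) and 144 of 1348 outside (10.7%, 9.08 to 12.5%). Neither the shift nor this share set the classes apart beyond counting error.

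Each block had its own range of heights. In block 1 the 32 heights lay between 30 and 83 around a median of 43.5 (40 to 47), and the shift against the peaks outside was -7 (-14 to -1). Of its 32 peaks, 22 (68.8%) had heights of 40 to 69 and 1 reached 70, against 388 of 1348 (28.8%) outside. In block 2 heights ran from 31 to 114 with a median of 61 (42 to 69), and the shift against outside was 4 (-4 to 13). The shift of block 2 over block 1 was 14.5 (3 to 24). That of block 4 was 5 (-1 to 12) over block 1 and -6 (-16 to 3) over block 2. The 8 peaks of block 3 had heights of 74, 42, 64, 109, 86, 63, 66 and 60 in order of position, with a median of 65 (42 to 109). Block 4 ran from 28 to 157 with a median of 50 (44 to 55) and a shift of -1 (-4 to 2). Its first part had a median of 44 (37 to 49), its middle part 47.5 (40 to 56) and its last part 58 (51 to 66). The block with the fewest peaks per Mb thus had the lowest median height, but blocks 2 and 3, which were sparser than block 4, had the highest medians.

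**Figure D3:**
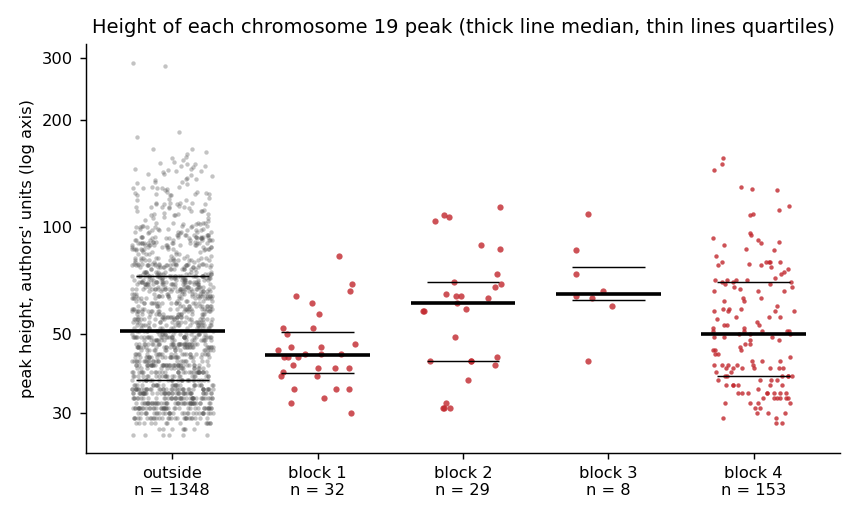
Height of each listed peak in the authors' units (vertical log axis), outside the blocks (grey) and in blocks 1 to 4 (red), with medians as thick lines and quartiles as thin lines. Block 1 is narrow, with a median of 43.5 and a tallest peak of 83, while outside the blocks heights reach 291.

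The 10 tallest peaks of the chromosome, with ties in height ranked by score, had heights of 157 to 291. Of these, 9 lay outside the blocks, as did 85.9% of all peaks of the chromosome, so this count is near the overall share. The peaks at chr19:50489985-50491076 and chr19:4769053-4770276, of heights 291 and 285, were 5.71 and 5.59 times the chromosome's median. The next was 185, at chr19:50828507-50829538, in a cluster of 7 peaks. Heights of 179 and 166 followed at chr19:12942902-12943902 and chr19:2739659-2740725. A second peak of height 166 lay at chr19:4791033-4792100, near the one of 285. Of the 10, the 3 closest to block 4 on its lower side were chr19:51014197-51015121 (158), chr19:51925004-51925756 (161) and chr19:52110999-52111888 (163). The last of the 10, of height 157, was the tallest of block 4. A peak outside at chr19:11639001-11640204 had the same height of 157 and a lower score.

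That tallest peak of block 4, at chr19:54618245-54619453, was 1208 bp wide and lay in the middle part. It was followed by chr19:56135349-56136168 (height 151, in a cluster of 10 peaks) and chr19:55727938-55728951 (height 145, alone). In block 2 the 3 tallest were chr19:37708557-37709425 (114), chr19:37568930-37569651 (108) and chr19:37263404-37264269 (107). The second and the third of these stood 93.8 and 84.7 kb from their nearest neighbours. In block 3 they were chr19:44617118-44617974 (109), chr19:44668878-44669572 (86) and chr19:44439232-44439872 (74), each alone. In block 1 they were chr19:24006506-24007245 (83), chr19:19886918-19887733 (69) and chr19:23432847-23433517 (66), each alone. The one of height 83 was the last before the centromere and stood 136 kb from its neighbour, and 244 peaks of chromosome 19 were taller.

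Peaks of the blocks included fewer wide ones. Median width was 545.5 bp in the blocks (485 to 602 bp) and 598.5 bp outside (568 to 637 bp), and the shift was -45 bp (-96 to 0 bp). Peaks over 800 bp were 47 of 222 in the blocks (21.2%, 15.99 to 27.1%) and 418 of 1348 outside (31.0%, 28.5 to 33.6%). Those of up to 200 bp were as frequent in both, 18.5% (13.6 to 24.2%) and 18.6% (16.6 to 20.8%), so the blocks had fewer wide peaks and more of medium width (60.4% against 50.4%). Block 1 had 2 peaks over 800 bp among 32, its widest measured 815 bp, and its shift was -125 bp (-256 to -12 bp). In block 2, 9 of 29 peaks were over 800 bp (31.0%, 15.3 to 50.8%), a share like that outside. The counts were 1 of 8 in block 3 and 35 of 153 in block 4 (22.9%, 16.5 to 30.4%). The first part of block 4 had a shift of -143 bp (-286 to -29 bp). Block 4 as a whole (-47 bp, -108 to 6 bp), its middle part (-53 bp, -154 to 27 bp), its last part (12 bp, -79 to 102 bp) and block 2 (28 bp, -105 to 165 bp) had width shifts whose intervals included 0. The widest peak of the chromosome, 3077 bp, lay outside, and the widest in a block, 1939 bp, lay in block 4.

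Height and width moved together in both classes. Across peaks their Spearman correlation was 0.87 in the blocks and 0.87 outside (n = 222 and 1348), as a description of 1 list in which both values come from the same signal. At matched width the median heights were within 2 units of each other. They were 34 in the blocks and 32 outside for peaks of up to 200 bp, 49 and 48 for those over 200 and up to 800 bp, and 78 and 79 for those over 800 bp. At matched height, the median width was lower in the blocks in each class except heights of 36 to 45, and the intervals overlapped in each class. In the blocks and outside they were 157.5 and 159 bp at heights of 26 to 35, and at heights of 36 to 45 they were 406.5 bp (interval 292 to 465) and 344 bp (303 to 394). They were 528 and 571 bp at heights of 46 to 55 and 660 and 736 bp at heights of 56 to 65. At heights of 66 to 80 they were 764.5 bp (667 to 828) and 840 bp (776 to 891). The authors' significance value, which resembles a log10 p-value, was close at matched height: for heights of 36 to 45 its median was -22.9 in the blocks and -22.5 outside.

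**Figure D4:**
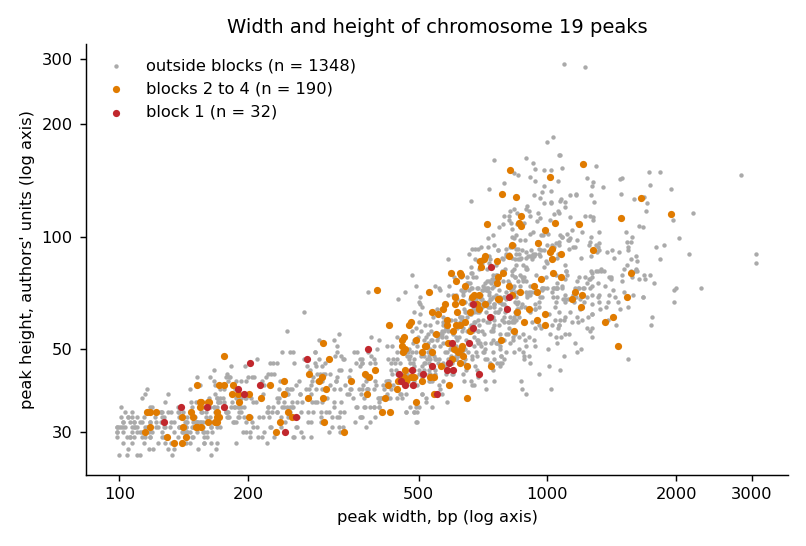
Width in bp (horizontal log axis) against height in the authors' units (vertical log axis) of each chromosome 19 peak, outside the blocks (grey, n = 1348), in blocks 2 to 4 (orange, n = 190) and in block 1 (red, n = 32). Peaks of the blocks follow the same band as the others; those of block 1 stop at a width of 815 bp and a height of 83.

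Peaks of the blocks stood alone more often. Peaks no more than 12.5 kb apart were stitched into clusters, and 110 of the 222 peaks of the blocks (49.5%, exact interval 42.8 to 56.3%) were in a cluster, against 995 of 1348 outside (73.8%, 71.4 to 76.1%). Sparser peaks cluster less at a fixed distance by construction, so the distance to the nearest peak was also set against the mean spacing of its class. The median distance was 12.5 kb in the blocks, 0.207 of their mean spacing of 60.4 kb, and 3.32 kb outside, 0.0984 of a mean spacing of 33.7 kb. Relative to their own density, peaks of the blocks were therefore still farther apart. The clustered share was 25% in block 1 (11.5 to 43.4%), 44.8% in block 2 (26.4 to 64.3%), 25% in block 3 (3.19 to 65.1%) and 56.9% in block 4 (48.6 to 64.8%). In block 4 it was 71.9% in the middle part (59.2 to 82.4%), 33.3% in the part before (17.3 to 52.8%) and 52.5% in the part after (39.1 to 65.7%). Thus in clustering, as in density, the middle part of block 4 was close to the chromosome outside the blocks.

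All clusters of block 1 were close pairs. They lay at chr19:19976699-19977734 (heights 52 and 35), chr19:20011531-20012088 (35 and 30), chr19:21541669-21542294 (46 and 33) and chr19:22034541-22034991 (40 and 32). The gaps within them were 205, 174, 164 and 110 bp, close to the smallest gap between any peaks of the chromosome (0.101 kb). When peaks under 500 bp apart were joined, a setting added after the data were seen for single blocks, block 1 had 28 peaks and 0 of them were clustered (0%, 0 to 12.3%). The share outside the blocks was then 65.8% (63.04 to 68.6%). Blocks 2, 3 and 4 kept 34.6, 25 and 45.2%. Every joined peak of block 1 thus stood more than 12.5 kb from its neighbour.

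**Figure D5:**
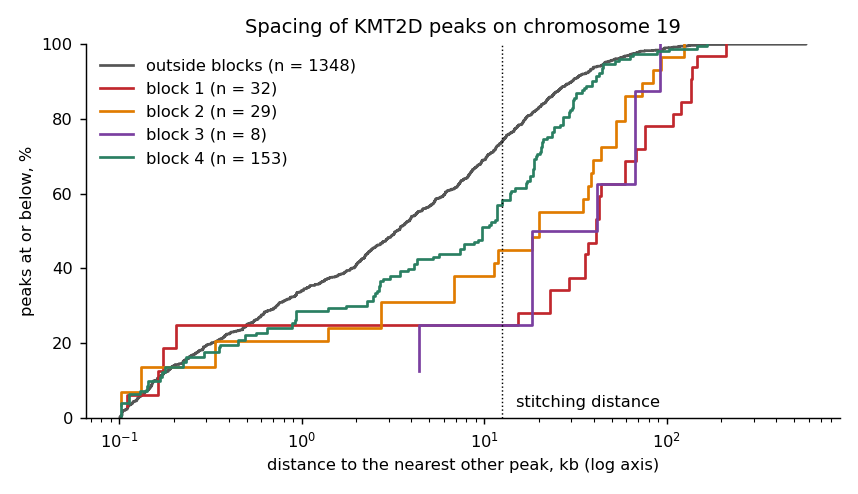
Share of peaks in percent (vertical axis) whose nearest other peak lies at or below a given distance in kb (horizontal log axis), for peaks outside the blocks and in each block. The dotted line marks the stitching distance of 12.5 kb; in block 1 the curve is flat at 25% between its close pairs and peaks over 12.5 kb apart.

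Clusters inside the blocks were more often pairs. Of the 328 clusters on the chromosome, 38 lay in the blocks, which held 14.1% of the peaks. Among these 38, 27 (71.1%) were pairs, 7 had 3 or 4 peaks, 2 had 5 to 9 and 2 had 10 or more. Outside there were 290, of which 145 (50%) were pairs, 89 had 3 or 4 peaks, 45 had 5 to 9 and 11 had 10 or more. Mean size was 2.89 peaks in the blocks and 3.43 outside. Sparser peaks form smaller clusters at a fixed distance by construction, and no interval was computed for the shares of pairs. Blocks 2 and 4, like block 1, held pairs with gaps under 500 bp, which would be single peaks once joined. Cluster sizes were not recounted after joining. The 2 of 13 clusters of 10 or more that lay in the blocks were near the blocks' share of peaks. No cluster crossed a block edge. The largest in block 2 held 4 peaks at chr19:36605492-36632224 (tallest 70), and the only one in block 3 was a pair at chr19:44711310-44716884 (tallest 66). In block 4 the largest held 12 peaks over 67.8 kb at chr19:55624216-55692011, in the middle part, with peaks over 9.90% of its span and a tallest of 115. Block 4 also held a denser one, with 10 peaks over 31.9 kb at chr19:56135349-56167286, just beyond the middle part. That cluster was filled to 23.6%. Its peaks had a median of 75.5 in height, the highest among the 13 clusters of 10 or more on the chromosome.

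Of the 11 clusters of 10 or more outside the blocks, 6 lay in the first 3 Mb of the short arm. The cluster with the most peaks, 19 over 36.6 kb, lay at chr19:1240185-1276776. Its neighbours were at chr19:1063053-1104459 (12 peaks), chr19:1647555-1672643 (10), chr19:1848123-1905893 (11), chr19:2446623-2491788 (10) and chr19:2610392-2632079 (10). A pair of clusters followed at chr19:6501998-6536751 (10) and chr19:6564281-6607307 (11). The others were at chr19:10330444-10363050 (10), chr19:18263184-18316203 (10) and chr19:45970806-46027402 (11). The median heights of these 11 clusters were 38 to 59.5, around the median of 51 over all peaks of the chromosome.

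As listed, lone peaks had higher medians than clustered ones in both classes. In the blocks the median height was 53 (47 to 59) for the 112 lone peaks and 44.5 (40 to 51) for the 110 clustered ones, with overlapping intervals. Outside it was 56 (51 to 60) and 49 (48 to 52), and these intervals overlapped too. In width the medians in the blocks were 597 bp (553 to 626) and 473.5 bp (374 to 543), and those outside were 667 bp (612 to 701) and 569 bp (526 to 611). The last part of block 4 went the other way, with median heights of 57 for lone and 58 for clustered peaks and median widths of 599 and 610 bp. Among lone peaks alone, the height shift of the blocks against the remainder was -2 (-7 to 2). Clustered peaks include all those under 500 bp from a neighbour, 21.6% of the peaks in the blocks and 24.8% outside. With such peaks joined, all peaks outside, lone and clustered, had medians of 56 in height and 693 bp in width. Lone and clustered peaks were not compared again after joining, so how far close neighbours account for the contrast was not tested.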

How the data were processed

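One deposited list of KMT2D peaks was used. The input library has no file of its own here and was not analysed. The submitters' processing notes name hg19 and CASAVA 1.8.2; for the peak caller, its threshold, reads that map to several places and how the input was used, the record is: not given in the sources used here. Per the file, the 11 columns have no header and were read from their values. The deposited signal per peak is a whole number called height; 2 deposited score columns give a score and a significance value; a deposited percent column gives the place of the highest point. Whether positions count from 0 or 1 is not stated.

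Density is peaks per Mb, over block length or, outside, over the first-to-last peak span less the blocks, centromere included. Intervals at 95% are exact Poisson (densities), exact conditional (ratios), exact binomial (shares), order-statistic (medians) and rank-based (Hodges-Lehmann shifts). Functions were tested on simulated data. No p-value was computed. Regions were named by rule: the 10 tallest peaks, the 3 tallest of each block, clusters of 10 or more, the largest cluster of each block (all clusters for block 1), the 5 longest stretches without a peak, and the extreme 1 Mb windows. Members, blocks and lists were chosen with earlier results of these data known. The list gives no reads, so the sequencing depth is unknown. Placing peaks at genes and reading their sequence were planned, but need an hg19 annotation and genome, which were not used here. Tools were Python 3.11.15, scipy 1.17.1, numpy 2.4.6, matplotlib 3.10.9 and pandas 2.3.3.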

Additional observations from a re-analysis of the deposited data

How the results depend on the processing

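No paired analysis was possible because only 1 KMT2D library was made. An alternative value counts as moved when it lay outside the 95% interval of the main value for the same result. Of 45 alternative values 34 stayed and 11 moved. The density ratio of blocks to remainder was below 1 under all 12 alternatives run for it. It was 0.467 without the part from 54 to 56 Mb, 0.728 without block 1 and 0.328 without block 4. The clustered share in the blocks was below that outside under all 10 alternatives. It was 37.8% (outside 56.5%) after stitching at 5 kb, 67.6% (87.2%) at 25 kb, 36.5% (65.8%) once peaks under 500 bp apart were joined, 41.2% (60.8%) among the highest-scoring 50% of the whole list, 40.5% without 54 to 56 Mb and 33.3% without block 4. Stitching distance moves this share by construction. The highest-scoring 50% of the whole list held 1079 (68.7%) of the chromosome 19 peaks. With these the height shift was -5 (-9 to -1) and the width shift -124 bp (-183 to -69 bp), both then clear of 0; the cause was not tested. The width shift's interval ended at 0 bp, and it was clear of 0 also after merging (-79 bp, -137 to -23 bp), without block 2 (-56 bp, -111 to -8 bp) and without block 3 (-49 bp, -101 to -2 bp). It reached or crossed 0 without block 1 (-31 bp, -85 to 16 bp), without 54 to 56 Mb (-42 bp, -100 to 9 bp), without block 4 (-41.5 bp, -128 to 33 bp) and with blocks trimmed by 100 kb (-46 bp, -98 to 0 bp). Ratios to chromosomes 17 and 22 stayed. The unknown depth limits what can be said of stretches without a peak.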

Other observations

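The highest point lay in the middle 50% of the peak's width for 78.8% of peaks in the blocks and 78.3% of those outside, and the median distance from the middle of the peak was 62 and 64 bp. In block 2 the share was 89.7% (29 peaks) and in block 1 71.9% (32 peaks). The deposited score per unit of height had a median of 0.574 in the blocks and 0.552 outside. For heights of 26 to 35, 36 to 45, 46 to 55, 56 to 65 and 66 to 80, the median score was 22.8, 25.1, 27.9, 31.8 and 37.4 in the blocks and 21.7, 23.5, 27.0, 30.7 and 35.7 outside, so it was higher in the blocks in each height class. Peaks with a neighbour closer than 500 bp were 21.6% of those in the blocks and 24.8% of those outside, a smaller contrast than that in clustering at 12.5 kb. These values were chosen after they were seen, and no explanation was tested.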
